A study of Mus musculus with 10 samples.

Results

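The genes described here are 10 transcription factors of naive pluripotency, namely Pou5f1, Sox2, Nanog, Esrrb, Klf2, Klf4, Klf5, Tfcp2l1, Zfp42 and Tbx3, chosen by name and read from a table of ribosome footprints. All 10 were among the 11011 genes of the table, and all 10 passed the filter on low counts, which kept 10978. Ribosome profiling sequences the stretches of mRNA that ribosomes shield from nuclease. It was carried out on mouse embryonic stem cells of the line E14, of 129/Ola background, kept in serum with LIF on gelatine and treated briefly with cycloheximide before lysis. The groups were libraries labelled Dgcr8 knockout, Drosha knockout, Dicer knockout and Ago1&Ago2 double knockout, and wild type (WT) libraries, with 2 in each of the 5 groups. The labels do not say how the lines were made, whether each is 1 clone, or whether the 2 libraries of a group came from separate cultures, so a p-value reflects nothing but the scatter of these libraries, which may be technical. Matched mRNA libraries were not used here, and a footprint level therefore includes the amount of mRNA. In such bulk samples, fewer cells that express a gene and less of its RNA per cell cannot be told apart.

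Naive pluripotency is the state of the early epiblast that embryonic stem cells hold in culture. Pou5f1 (Oct4) and Sox2 bind DNA together at the enhancers of most stem cell genes, and Nanog acts with them. Around this core sit Esrrb, Tfcp2l1, Tbx3 and the Krüppel-like factors Klf2, Klf4 and Klf5, which are partly interchangeable in self-renewal, while Zfp42 (Rex1) is a common marker of the naive state. LIF acts through Stat3 on Klf4 and Tfcp2l1, and Klf2 is known to be held down by Mek and Erk signalling. The proteins lacking in the knockouts act in small RNA silencing. Drosha with Dgcr8 cuts primary miRNA transcripts, Dicer cuts their precursors, and Ago proteins hold the mature miRNA, whose seed at bases 2 to 8 pairs with sites in 3′ UTRs.

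Total counts lay between 1754710 and 80850950 per library, and the 10 factors together took 0.381% to 0.531% of them, with 40 to 89809 counts for a factor in a library. The lowest counts were those of Klf4 in the Dicer knockout, 88 and 40, and counting error bears most on that value. Levels are given in CPM, counts per 1000000 counts of the library on sizes scaled by TMM. The targeted genes Drosha, Dicer1 and Ago2 were lower under their own labels (log2 -2.59, -2.72 and -2.94, all past the threshold). Ago1 was not lower in the libraries labelled Ago1 and Ago2 knockout, at 27.02 and 10.7 CPM there, against 14.7 and 14.3 CPM in WT (log2 0.37, adjusted p = 0.667), so that group is named by its label. Dgcr8 was not lower under its own label, at 145 and 146 CPM, against 32.7 and 33.1 CPM in WT. It was above both WT libraries in Drosha knockout cells too, at 169 and 197 CPM. Dicer knockout cells had 64.5 and 76.1 CPM, and libraries labelled Ago1 and Ago2 knockout 74.6 and 63.5 CPM. The reason was not tested, and such levels do not show the genotype of the libraries labelled Dgcr8 knockout. Those libraries and the ones labelled Ago1 and Ago2 knockout are counted below as libraries labelled knockout. The first library labelled Dgcr8 knockout also stood apart from the second at several factors, as given below. The markers of a stem cell culture, Pou5f1, Sox2, Nanog, Zfp42, Sall4, Dppa5a and Utf1, were each at 264 CPM or more in every library. Pou5f1, Sox2, Nanog and Zfp42 are themselves among the 10 factors.

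Both factors called against WT, Klf2 (higher) and Klf4 (lower), carry a match to the same miRNA seed in their 3′ UTRs. These stretches are shown because the knockouts concern the pathway that reads such sites. The site searched was GTGCAAT, which pairs with the seed of 6 mature miRNAs of RefSeq (GRCm38.p6), and both stretches go on with an A, as GTGCAATA. Mature miRNAs are given 5′ to 3′ with the seed in capitals, and the stretches of mRNA 5′ to 3′ with the site in capitals.
miR-92a-3p: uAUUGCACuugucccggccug
miR-92b-3p: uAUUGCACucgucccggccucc
miR-25-3p: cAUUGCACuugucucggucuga
miR-32-5p: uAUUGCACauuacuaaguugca
miR-363-3p: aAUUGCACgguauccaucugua
miR-367-3p: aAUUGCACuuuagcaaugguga
Klf2 3′ UTR: gttttcaaaatgGTGCAATaattgact
Klf4 3′ UTR: gtggtttcagatGTGCAATaatttgta
Tfcp2l1 3′ UTR: gagaagtagaagGTGCAATcagaagtc

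The Klf2 site spans bases 214 to 220 of a 3′ UTR of 737 bases, and the Klf4 site bases 751 to 757 of 982, both counted from the base after the stop codon in GENCODE M21. Tfcp2l1 holds GTGCAAT without the A, in a much longer 3′ UTR of 7734 bases. Of the 3′ UTRs of 10864 genes tested, 6.79% hold GTGCAAT and 2.60% hold GTGCAATA. In all, 13 seeds were searched in the 10 factors. Klf2 matched this 1 alone, and Klf4 also that of miR-200b-3p. A match is a description of the letters, not a shown site of silencing.

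The seed of the miR-290 family, known as the main miRNA family of mouse embryonic stem cells, is represented by miR-294-3p, and that of the miR-17 family by miR-17-5p. Each has a match in just 1 of the 10 factors, Tfcp2l1 for AGCACTT and Tbx3 for GCACTTT. Several of the other seeds searched also matched just 1 factor.
miR-294-3p: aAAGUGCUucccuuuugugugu
miR-17-5p: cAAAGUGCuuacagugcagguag
Tfcp2l1 3′ UTR: gctcgatggccgAGCACTTcccaactg
Tbx3 3′ UTR: aaatctgccagtGCACTTTgttagatg

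AGCACTT is present in 16.4% and GCACTTT in 13.8% of the 3′ UTRs of the genes tested. Neither string was found in the 3′ UTRs of Pou5f1, Sox2, Nanog, Esrrb, Klf2, Klf4, Klf5 or Zfp42, which says only that these letters are not in those stretches.

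In promoters 6 strings were searched on both strands, and the 2 stretches shown hold those known as binding sequences of the core factors. The composite element bound by Oct4 and Sox2, searched on both strands as TTGCAT, any base and then ACAA, was found in Nanog, and the octamer ATGCAAAT, searched likewise, in Zfp42, where it lies on the opposite strand. The element is in capitals, and the sequences are those of RefSeq on GRCm38.p6.
Nanog promoter: agcttcttTTGCATTACAAtgtccatg
Zfp42 promoter: gaagaggcATTTGCATaactgagc

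The Nanog stretch lies in the window chr6:122707239-122707538 on the plus strand, and the Zfp42 stretch in chr8:43306960-43307259 on the minus strand. Of 32851 promoter windows of 300 bases, 0.149% hold the composite string and 1.74% the octamer. Promoters of 8 of the 10 factors were in the table, those of Klf5 and Tbx3 not matched. The string GGGCGGGG, of the kind bound by Klf factors, was in 5 of the 8, namely Klf2, Klf4, Pou5f1, Sox2 and Zfp42, and in 17.6% of all windows. The Stat string TTCCNGGAA, in 1.15% of all windows, the Esrrb string TCAAGGTCA, in 0.423%, and a Tfcp2l1 string, in 0.0335%, were found in none of the 8.

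Klf2 rose and Klf4 fell in the Drosha and Dicer knockouts and in the libraries labelled Ago1 and Ago2 knockout, while the other 8 factors passed in none of the 4 comparisons with WT. In the Drosha knockout 1 of 10 factors was called higher, against 2.48% of all genes tested, and 1 lower, against 0.966%. For the Dicer knockout 1 was called higher, against 7.35% of all genes, and 1 lower, against 3.76%. The libraries labelled Ago1 and Ago2 knockout had 1 higher, against 1.98%, and 1 lower, against 0.902%. In the libraries labelled Dgcr8 knockout edgeR called 0 of 10, against 0.0729% of all genes in either direction. There 2 of 10, Klf2 and Klf4, had an unadjusted p under 0.05 (0.00206 and 0.00203), beside 9.81% of all genes. DESeq2 called both (adjusted p = 0.0182 and 0.0292) and limma-voom 0. Calls are from edgeR's quasi-likelihood test at an adjusted p of 0.05 (Benjamini-Hochberg over all genes tested), and the 4 comparisons share the WT libraries.

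**Figure D1:**
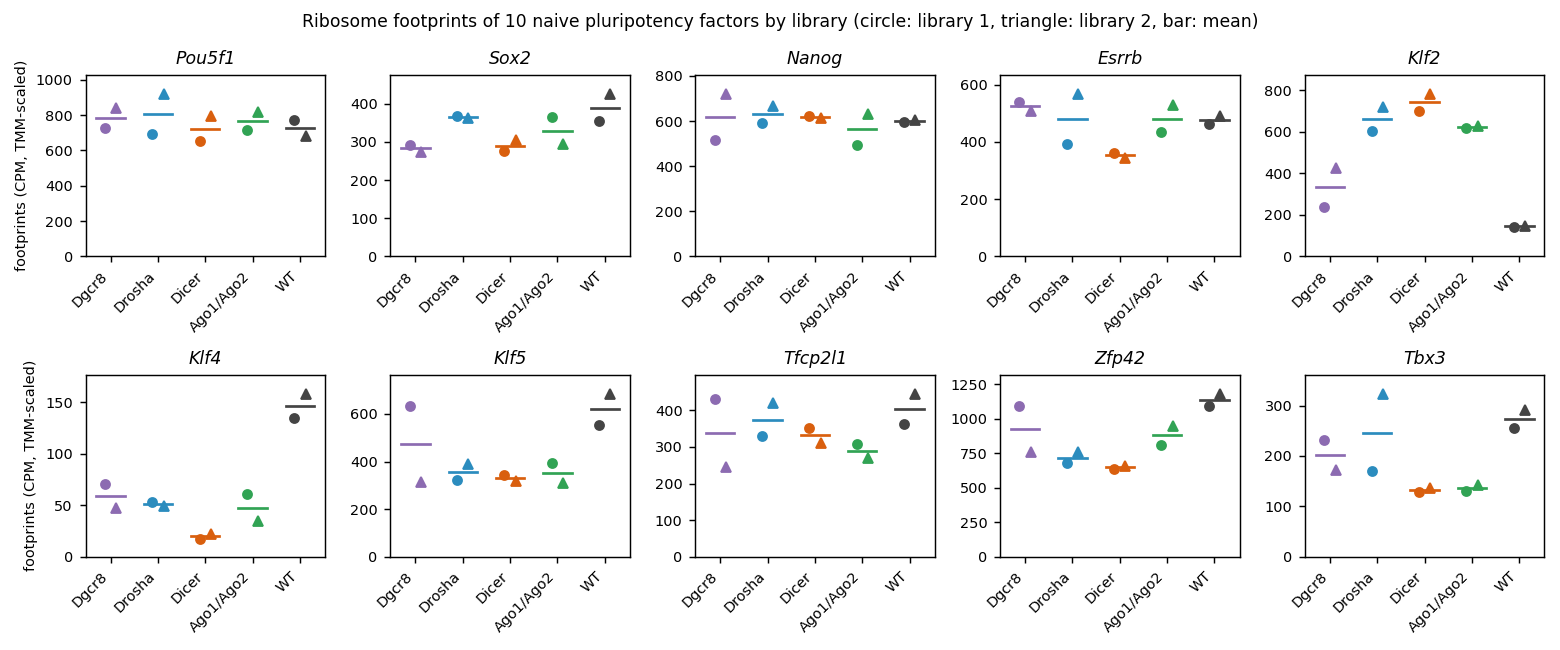
Footprints of each factor in CPM (vertical axis, from 0) in the 2 libraries of each group, with circles for library 1, triangles for library 2 and bars for the mean of the group. Klf2 lies at 142 and 146 CPM in WT and above that in every library labelled knockout, and Klf4 at 135 and 158 CPM in WT and below that in every library labelled knockout.

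Klf2, a zinc finger factor that carries much of the self-renewal of cells grown with Mek inhibition, had 239.7 and 424 CPM in libraries labelled Dgcr8 knockout, 605 and 719 in Drosha knockout cells, 702 and 782 in Dicer knockout cells, 620.1 and 628 in libraries labelled Ago1 and Ago2 knockout, against 142 and 146 CPM in WT. Every library labelled knockout lay above both WT libraries, and the second library labelled Dgcr8 knockout lay nearer to the other groups labelled knockout than the first. Over WT, Klf2 rose by log2 2.20 in the Drosha knockout (SE 0.31, adjusted p = 0.0108), a fold of 4.59. It rose by log2 2.36 in the Dicer knockout (SE 0.32, adjusted p = 0.0021), a fold of 5.14. In the libraries labelled Ago1 and Ago2 knockout it rose by log2 2.11 (SE 0.31, adjusted p = 0.00979), a fold of 4.32. In the libraries labelled Dgcr8 knockout the difference was log2 1.20 (95% interval 0.53 to 1.86, adjusted p = 0.258). It was log2 1.55 without the first of them and log2 0.73 without the second. Removing WT library 1 ended the calls in Drosha knockout cells and in the libraries labelled Ago1 and Ago2 knockout (adjusted p = 0.0873 and 0.0707), and so did removing WT library 2 (adjusted p = 0.17 and 0.173), with log2 values between 2.10 and 2.22.

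Klf4, a direct target of LIF and Stat3, had 71.02 and 46.8 CPM in libraries labelled Dgcr8 knockout, 52.8 and 49.4 in Drosha knockout cells, 17.4 and 22.1 in Dicer knockout cells, 60.4 and 35.1 in libraries labelled Ago1 and Ago2 knockout, against 135 and 158 CPM in WT. All 8 libraries labelled knockout lay below both WT libraries, and those of the Dicer knockout were the lowest of the 10. Klf4 fell by log2 1.52 in the Drosha knockout (SE 0.34, adjusted p = 0.0346) and by log2 1.62 in the libraries labelled Ago1 and Ago2 knockout (SE 0.33, adjusted p = 0.0275). Against WT it fell in the Dicer knockout by log2 2.91 (SE 0.36, adjusted p = 0.00176), or 7.50-fold lower than WT. In the libraries labelled Dgcr8 knockout the difference was log2 -1.31 (95% interval -2.03 to -0.58, adjusted p = 0.258). The call in the Drosha knockout was lost without any 1 library of WT, of Drosha or of Dicer (adjusted p from 0.0513 to 0.271), and in limma-voom (adjusted p = 0.0905). That in the libraries labelled Ago1 and Ago2 knockout was lost without WT library 1 or 2 (adjusted p = 0.108 and 0.261) or the second of those libraries (adjusted p = 0.0982). Both Klf2 and Klf4 kept their calls in the Dicer knockout with each of the 10 libraries left out in turn.

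**Figure D2:**
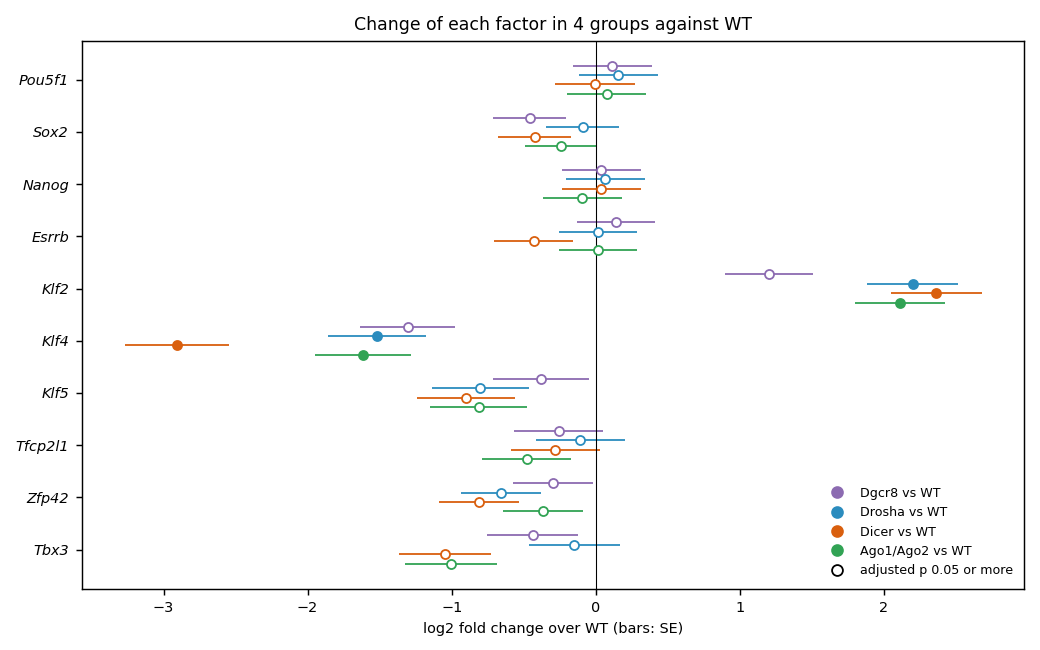
Log2 fold change of each factor over WT (horizontal axis) in the 4 groups, with bars for the SE and filled points for an adjusted p under 0.05. Klf2 lies furthest right, between 1.20 and 2.36, and Klf4 lies furthest left, between -2.91 and -1.31.

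Klf5, the third Krüppel-like factor of the network, which also acts in trophectoderm, had 634 and 316 CPM in libraries labelled Dgcr8 knockout, 322 and 388 in Drosha knockout cells, 345 and 318 in Dicer knockout cells, 396 and 309 in libraries labelled Ago1 and Ago2 knockout, against 556 and 683 CPM in WT. The first library labelled Dgcr8 knockout lay between the WT libraries, and the other 7 libraries labelled knockout lay below both. Klf5 passed in none of the comparisons. Its difference from WT was log2 -0.90, SE 0.34, adjusted p = 0.109 in the Dicer knockout, log2 -0.81, SE 0.34, adjusted p = 0.211 in the libraries labelled Ago1 and Ago2 knockout and, for Drosha, log2 -0.80, SE 0.34, adjusted p = 0.22. Of 18 alternative fits, 1 called Klf5 lower in the Dicer knockout, that of the 2 groups alone (adjusted p = 0.0125). That fit called 1427 genes lower over all, against 413 with edgeR on all 10 libraries.

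Since Klf2 and Klf4 differed from WT in opposite directions, their ratio within a library, which no scaling of libraries can alter, was read per kilobase of coding sequence. Klf2 over Klf4 was 4.60 and 12.4 in the libraries labelled Dgcr8 knockout, 15.6 and 19.9 in Drosha knockout cells, 55.03 and 48.3 in Dicer knockout cells, 14.01 and 24.4 in libraries labelled Ago1 and Ago2 knockout, against 1.44 and 1.27 in WT. No library labelled knockout overlapped WT in this ratio, which follows from the separate levels of Klf2 and Klf4 given above. Of the footprint density of the 3 Klf factors together, Klf2 made up 30.2 and 59.8% in the libraries labelled Dgcr8 knockout, 67.3 and 67.6% in Drosha knockout cells, 71.00 and 74.4% in Dicer knockout cells, 63.4 and 69.9% in libraries labelled Ago1 and Ago2 knockout, against 20.9 and 18.2% in WT. In WT Klf5 held the larger part, 64.6 and 67.4%. The summed density of the 3 was 748 and 668 CPM per kb in the libraries labelled Dgcr8 knockout, 847 and 1001 in Drosha knockout cells, 931 and 989 in Dicer knockout cells, 921 and 847 in libraries labelled Ago1 and Ago2 knockout, against 642 and 757 CPM per kb in WT. The sum was above both WT libraries in the Drosha and Dicer knockouts and in the libraries labelled Ago1 and Ago2 knockout, and between them in those labelled Dgcr8 knockout. These ratios and shares are descriptions, with no test.

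**Figure D3:**
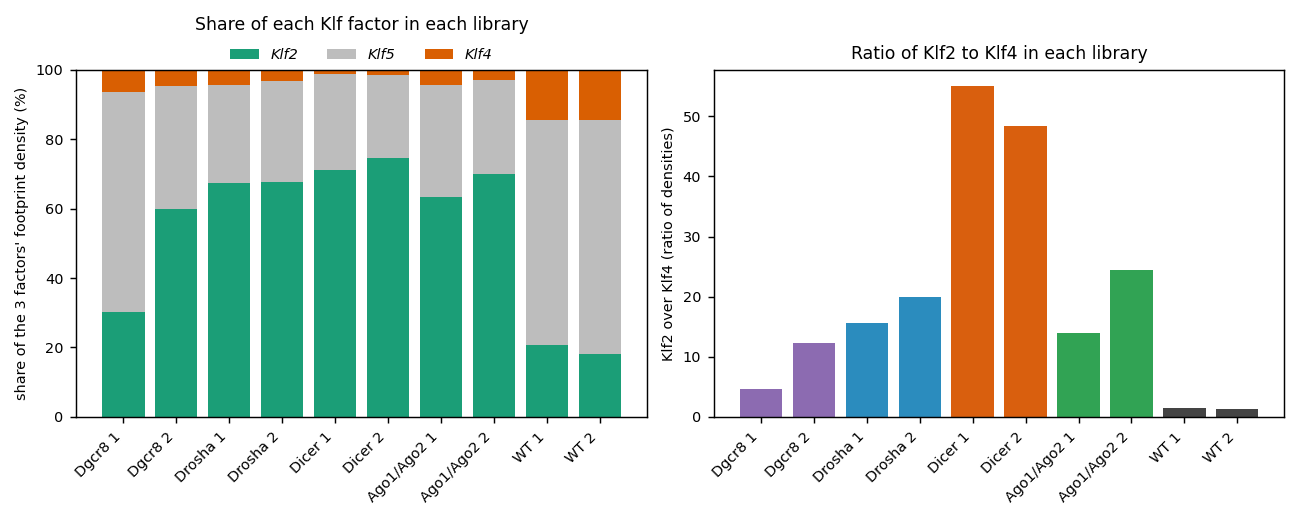
Left, share of Klf2, Klf5 and Klf4 in the summed footprint density of the 3 (percent, CPM per kilobase of coding sequence) in each library. Right, ratio of Klf2 to Klf4 density in each library, which is 55.03 and 48.3 in the Dicer knockout, against 1.44 and 1.27 in WT.

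None of the core factors Pou5f1, Nanog and Sox2 passed against WT in any group. Pou5f1 had 729.9 and 838 CPM in libraries labelled Dgcr8 knockout, 696 and 919.6 in Drosha knockout cells, 651 and 793 in Dicer knockout cells, 714 and 816 in libraries labelled Ago1 and Ago2 knockout, against 770.0 and 680.4 CPM in WT, and the libraries labelled knockout lay on both sides of WT. Nanog had 514 and 720.0 CPM in libraries labelled Dgcr8 knockout, 592 and 667 in Drosha knockout cells, 622 and 612 in Dicer knockout cells, 494 and 633 in libraries labelled Ago1 and Ago2 knockout, against 597 and 606 CPM in WT. Averaged over the 4 groups labelled knockout, Pou5f1 differed from WT by log2 0.08 (95% interval -0.39 to 0.56, adjusted p = 0.861) and Nanog by log2 0.01 (95% interval -0.46 to 0.49, adjusted p = 0.984). Neither showed a difference beyond the spread between libraries, and the intervals bound the mean change that these libraries allow. Sox2, the partner of Pou5f1, had 293 and 274 CPM in libraries labelled Dgcr8 knockout, 368 and 363 in Drosha knockout cells, 276 and 304 in Dicer knockout cells, 364 and 295 in libraries labelled Ago1 and Ago2 knockout, against 353 and 425 CPM in WT. Its difference over the 4 such groups was log2 -0.30 (95% interval -0.73 to 0.12, adjusted p = 0.378), with both libraries below WT in the Dicer knockout and in those labelled Dgcr8 knockout.

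Esrrb, an orphan nuclear receptor that can stand in for Nanog in self-renewal, had 540.3 and 507 CPM in libraries labelled Dgcr8 knockout, 393 and 567 in Drosha knockout cells, 360.1 and 345 in Dicer knockout cells, 434 and 529 in libraries labelled Ago1 and Ago2 knockout, against 461 and 491 CPM in WT. It was lowest in the Dicer knockout (log2 -0.43, SE 0.27, adjusted p = 0.333) and differed by log2 -0.07 over the 4 such groups (95% interval -0.53 to 0.40). Tfcp2l1, a target of LIF and Stat3, had 430.0 and 245 CPM in libraries labelled Dgcr8 knockout, 329 and 420.2 in Drosha knockout cells, 353 and 311 in Dicer knockout cells, 309 and 271 in libraries labelled Ago1 and Ago2 knockout, against 363 and 444 CPM in WT. Its lowest values were those of the second library labelled Dgcr8 knockout and of the libraries labelled Ago1 and Ago2 knockout, where the difference was log2 -0.48, SE 0.31, adjusted p = 0.428. Neither factor passed in any comparison with WT.

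Tbx3, a T-box repressor that supports the naive state downstream of PI3K, had 232 and 172 CPM in libraries labelled Dgcr8 knockout, 170.4 and 322 in Drosha knockout cells, 129 and 136 in Dicer knockout cells, 129.8 and 143 in libraries labelled Ago1 and Ago2 knockout, against 256 and 291 CPM in WT. Both libraries were below WT in the Dicer knockout and in the libraries labelled Ago1 and Ago2 knockout, while the second Drosha library stood above WT and the first below. The differences were log2 -1.05, SE 0.32, adjusted p = 0.0562 in the Dicer knockout and log2 -1.004, SE 0.32, adjusted p = 0.108 in the libraries labelled Ago1 and Ago2 knockout. Neither passed. Of 18 alternative fits each, 5 called Tbx3 lower in the Dicer knockout and 13 did not, and 1 called it lower in the libraries labelled Ago1 and Ago2 knockout and 17 did not. Over all genes in the Dicer knockout, DESeq2 called 684 lower and the fit of the 2 groups alone 1427, against 413 with edgeR on all 10 libraries. In the libraries labelled Ago1 and Ago2 knockout DESeq2 called 329 lower, against 99. Tbx3 was called lower in the Dicer knockout by DESeq2 (adjusted p = 0.0207), by the fit of the 2 groups alone (adjusted p = 0.00385) and without the first or second Drosha library (adjusted p = 0.026 and 0.0277). In the libraries labelled Ago1 and Ago2 knockout it was called lower by DESeq2 (adjusted p = 0.0376).

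Zfp42 had 1088 and 759 CPM in libraries labelled Dgcr8 knockout, 676 and 761 in Drosha knockout cells, 635 and 659 in Dicer knockout cells, 808 and 949 in libraries labelled Ago1 and Ago2 knockout, against 1091 and 1176 CPM in WT. The first library labelled Dgcr8 knockout lay just under the lower WT library, and all 8 libraries labelled knockout lay below both WT libraries. The Dicer knockout libraries were the lowest (log2 -0.81, SE 0.28, adjusted p = 0.084), and Zfp42 was called there by DESeq2 (adjusted p = 0.0262) and by the fit of the 2 groups alone (adjusted p = 0.023). Of 18 alternative fits, 3 called Zfp42 there and 15 did not. With all 4 such groups averaged it was log2 -0.53 (95% interval -0.995 to -0.07, adjusted p = 0.151). Zfp42 and Klf4 were the 2 of 10 factors with every library labelled knockout below WT, against 8.05% of all genes, and Klf2 the 1 with every library labelled knockout above, against 8.15%.

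Over the 4 groups labelled knockout averaged, 1 factor was called higher (Klf2, log2 1.97, SE 0.27, adjusted p = 0.00422), against 3.81% of all genes, and 1 lower (Klf4, log2 -1.84, SE 0.23, adjusted p = 0.00346), against 3.26%. Klf2 lost this call with WT library 1 or 2 left out (adjusted p = 0.0597 and 0.109), and Klf4 with library 2 left out (adjusted p = 0.0884). Any difference among the 5 groups was called for the same pair, 2 of 10 factors against 6.47% of all genes, with an adjusted p of 0.00716 for Klf2 and 0.00659 for Klf4. Of these 2 calls, 1 was left without WT library 1 and 0 without WT library 2. The median log2 fold change of the 10 factors was -0.28 under the Dgcr8 label, -0.10 in Drosha knockout cells, -0.43 in Dicer knockout cells and -0.30 in the libraries labelled Ago1 and Ago2 knockout, where that of all genes tested lay between -0.01 and 0.04.

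Between groups labelled knockout, 6 comparisons were made, and Klf4 in the Dicer knockout against the libraries labelled Dgcr8 knockout was the 1 factor called in any of them (log2 -1.60, SE 0.35, adjusted p = 0.0301), where 4.07% of all genes were called in either direction. That call was lost without WT library 2, library 1 labelled Dgcr8 knockout, or any 1 Dicer library (adjusted p from 0.0559 to 0.338) and in limma-voom (adjusted p = 0.0582), which called Klf2 in its place (adjusted p = 0.0334). Klf4 in the Dicer knockout was also below Drosha by log2 -1.39 (95% interval -2.17 to -0.61, adjusted p = 0.367), which did not pass. For Klf2 the difference between the Dicer and Drosha knockouts was log2 0.16 (95% interval -0.49 to 0.82), and that between the libraries labelled Ago1 and Ago2 knockout and the Drosha knockout log2 -0.08 (95% interval -0.74 to 0.57). Klf2 in the Dicer knockout against the libraries labelled Dgcr8 knockout was at log2 1.16, SE 0.30, adjusted p = 0.0576. The other 5 comparisons had 0 of 10 factors called by edgeR, against 0.501% of all genes for Drosha over Dgcr8, 0.00911% for Dicer over Drosha, 0.483% for Ago1 and Ago2 over Dgcr8, 0.0455% for Ago1 and Ago2 over Drosha and 0.547% for Ago1 and Ago2 over Dicer. In that order 1, 2, 1, 1 and 1 of 10 factors had an unadjusted p under 0.05, beside 11.5%, 7.55%, 12.5%, 9.25% and 12.3% of all genes. For these 5, limma-voom called 0 in each, and DESeq2 called 1 in the last and 0 in the rest.

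Per kilobase of coding sequence, which allows levels of different genes to be set side by side, Zfp42 had the highest mean density of the 10 factors in every group, at 1069 ± 269.7 CPM per kb in libraries labelled Dgcr8 knockout, 831 ± 69.4 in Drosha knockout cells, 748 ± 19.7 in Dicer knockout cells, 1017 ± 115 in libraries labelled Ago1 and Ago2 knockout and 1312 ± 69.8 in WT (mean ± SD, n = 2). Klf4 had the lowest in every group, at 13.6 ± 2.28 CPM per kb in the Dicer knockout, against 101 ± 11.01 in WT. In WT the order went on with Pou5f1 and Nanog, whose libraries overlapped, then Klf5 and Sox2, which also overlapped, then Esrrb at 349.6 ± 15.4 and Tfcp2l1 at 281 ± 39.7 CPM per kb. Klf2 ranked 8 of 10 in WT, at 136 ± 2.81, and its libraries overlapped those of Tbx3 at 127 ± 11.3 CPM per kb. Klf2 ranked 2 in the Dicer knockout, at 698 ± 53.2 CPM per kb, and its libraries overlapped those of Zfp42 and of Pou5f1 at 684 ± 95.3. In the Drosha knockout and in the libraries labelled Ago1 and Ago2 knockout it ranked 4, at 623 ± 75.9 and 588 ± 5.55 CPM per kb, overlapping Nanog in both. The libraries labelled Dgcr8 knockout placed it at rank 6, at 313 ± 123.

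**Figure D4:**
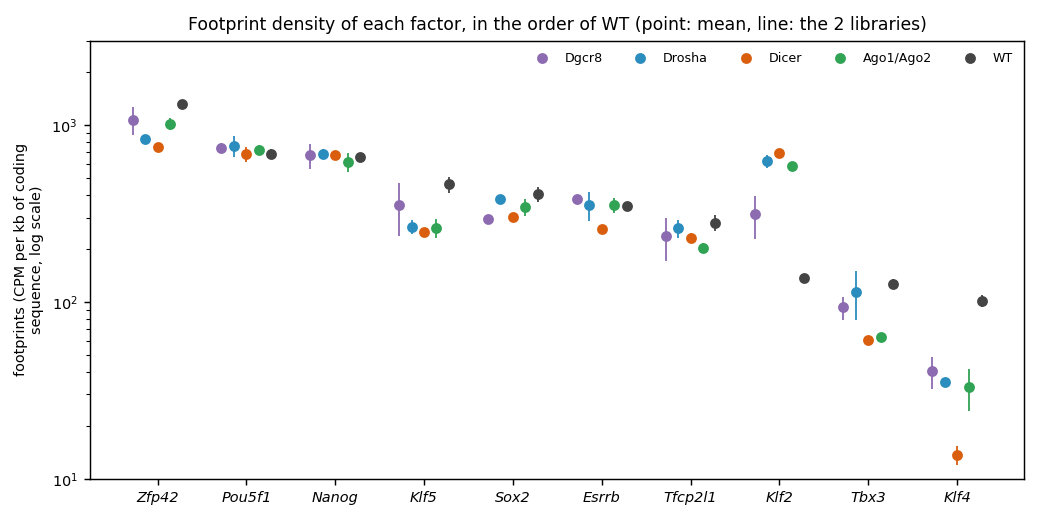
Footprint density of the 10 factors (vertical axis, CPM per kilobase of coding sequence, log scale) in the order of WT, with points for the mean and lines for the 2 libraries of each group. Klf2 and Klf4 are the factors whose points leave the WT point furthest, at 698 ± 53.2 and 13.6 ± 2.28 in the Dicer knockout against 136 ± 2.81 and 101 ± 11.01 in WT.

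In GRCm38 coordinates of GENCODE M21, Klf2 (ENSMUSG00000055148) lies on chromosome 8 from 72319033 to 72321656 (plus strand, coding length 1062 bases), Klf4 (ENSMUSG00000003032) on chromosome 4 from 55527143 to 55532466 (minus strand, coding length 1449 bases) and Klf5 (ENSMUSG00000005148) on chromosome 14 from 99298691 to 99315036 (plus strand, coding length 1338 bases). No other annotated gene overlaps these 3. The core factors are Pou5f1 on chromosome 17 from 35506018 to 35510772 (plus strand, coding length 1056 bases), Sox2 on chromosome 3 from 34650405 to 34652461 (plus strand, coding length 957 bases) and Nanog on chromosome 6 from 122707489 to 122714633 (plus strand, coding length 915 bases). The others are Esrrb on chromosome 12 from 86361117 to 86521628 (plus strand, coding length 1362 bases), Tfcp2l1 on chromosome 1 from 118627945 to 118685168 (plus strand, coding length 1437 bases), Zfp42 on chromosome 8 from 43295063 to 43306980 (minus strand, coding length 864 bases) and Tbx3 on chromosome 5 from 119670669 to 119684724 (plus strand, coding length 2163 bases). Sox2 lies within Sox2ot on the same strand, and Tfcp2l1 overlaps Gm23497 on the same strand. On the opposite strand, Gm19553 overlaps Pou5f1, Gm22094 and Gm28882 overlap Tfcp2l1, and Tbx3os1 overlaps Tbx3. None of those is a row of the table, and since the strand setting of the counting is not given, reads of such pairs cannot be told apart.

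Other genes of the naive network, 30 of 31 listed being in the table, gave few calls outside the Dicer knockout. Those called higher and lower numbered 2 and 5 of 30 in the Dicer knockout, where 7.35% and 3.76% of all genes were called higher and lower. They numbered 1 and 0 in the Drosha knockout, against 2.48% and 0.966%, 2 and 0 in the libraries labelled Ago1 and Ago2 knockout, against 1.98% and 0.902%, and in the libraries labelled Dgcr8 knockout 0 and 0. The list's median log2 was 0.26 under the Dgcr8 label, 0.14 in Drosha knockout cells, 0.29 in Dicer knockout cells and 0.24 in the libraries labelled Ago1 and Ago2 knockout, beside the medians of all genes given above. Gdf3, a growth factor of the TGF-beta family, rose in the Dicer (log2 2.12, adjusted p = 0.0032) and Drosha knockouts (log2 1.42, adjusted p = 0.0356) and in the libraries labelled Ago1 and Ago2 knockout (log2 1.87, adjusted p = 0.0162). Among others, in the Dicer knockout the RNA-binding protein Lin28a (2.77 and 16.5 CPM, against 71.7 and 98.1 CPM in WT, log2 -3.33, adjusted p = 0.00991) and the nuclear receptor Nr5a2 (log2 -1.57, adjusted p = 0.0113) fell, and Fbxo15 rose (log2 1.40, adjusted p = 0.0119). Tet1, which oxidises methylcytosine, rose in the libraries labelled Ago1 and Ago2 knockout (log2 1.37, adjusted p = 0.0319).

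Along the path that carries LIF to the network, 12 of 14 listed genes were in the table. Socs3, the feedback inhibitor that Stat3 switches on, was at 42.7 and 41.9 CPM in the Dicer knockout, against 112 and 162 CPM in WT, and fell (log2 -1.69, adjusted p = 0.0342). It did not pass in the Drosha knockout (log2 -1.28, adjusted p = 0.141) or the libraries labelled Ago1 and Ago2 knockout (log2 -1.12, adjusted p = 0.183). Stat3 itself was at 139.6 and 104 CPM in the Dicer knockout, against 140.3 and 169.9 CPM in WT (log2 -0.35, adjusted p = 0.467). Osm, a cytokine that uses the same signalling chain, was at 33.2 and 18.8 CPM in the Dicer knockout, with 0 counts in 1 WT library and 0.17 CPM in the other, and was called higher there (adjusted p = 0.00175). In all, 2 of 12 members were higher and 1 lower in the Dicer knockout, 2 and 0 in the Drosha knockout, and 1 and 0 in the libraries labelled Ago1 and Ago2 knockout, with medians of log2 0.27, 0.09 and 0.26 in that order. Of all genes, 7.35% and 3.76% were called higher and lower in the Dicer knockout, 2.48% and 0.966% in the Drosha knockout, and 1.98% and 0.902% in the libraries labelled Ago1 and Ago2 knockout.

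Of 15 measured antagonists of the naive state, 1 was called in any group, Etv4, an effector of FGF and Erk signalling. It fell in the Dicer knockout (log2 -1.96, adjusted p = 0.0195), where 3.76% of all genes were called lower. The median of these 15 was log2 -0.22 there. Tcf7l1, the repressor of Klf2, Esrrb and Tfcp2l1 that Wnt signalling relieves, was at 25.1 and 31.4 CPM in the Dicer knockout, against 11.8 and 13.1 CPM in WT (log2 1.17, adjusted p = 0.0617), and did not pass. Among 13 measured formative and primed genes, Zic2 rose in the Dicer (log2 3.70, adjusted p = 0.00261) and Drosha knockouts (log2 2.85, adjusted p = 0.0175) and in the libraries labelled Ago1 and Ago2 knockout (log2 3.27, adjusted p = 0.0121). Members differed in direction. Tcf15 was at 2.18 and 6.07 CPM in the Dicer knockout, against 34.8 and 41.9 CPM in WT. Sox4 was at 4.15 and 3.86 CPM there, against 15.8 and 20.6 CPM in WT. Over the 4 groups labelled knockout averaged, 2 of the 13 were called higher and 2 lower, against 3.81% and 3.26% of all genes. The list's median log2 was 0.71 in the libraries labelled Dgcr8 knockout, 0.52 in Drosha knockout cells, 0.88 in Dicer knockout cells and 0.44 in the libraries labelled Ago1 and Ago2 knockout. Called higher and lower were 0 and 0 of the 13 under the Dgcr8 label, 2 and 0 in Drosha knockout cells, 2 and 1 in Dicer knockout cells, and 2 and 0 in the libraries labelled Ago1 and Ago2 knockout, beside the shares of all genes given above.

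Genes listed for primitive endoderm were lower in the same groups in which Klf2 and Klf4 were called, and genes listed for other cell types differed from group to group. Most of the summed level of the endoderm list in WT came from the laminin genes Lamc1, Lama1 and Lamb1, at means of 5305, 3998 and 2703 CPM. Gata6, Gata4 and Sox17 averaged 32.1, 28.9 and 25.0 CPM there. What remained in the Dicer knockout was largely Lamc1 and Sparc, at means of 2825 and 1179 CPM, so the sum is no measure of endoderm cells. The summed level of 12 measured primitive endoderm genes was 4186 to 10698 CPM under the Dgcr8 label, 4154 to 5598 CPM in Drosha knockout cells, 3981 to 5994 CPM in Dicer knockout cells and 4047 to 6162 CPM in the libraries labelled Ago1 and Ago2 knockout, against 16370.0 to 18923 CPM in WT. Beside shares of all genes called lower of 0.966% in Drosha knockout cells, 3.76% in Dicer knockout cells and 0.902% in the libraries labelled Ago1 and Ago2 knockout, 6 of the 12 fell in Drosha knockout cells, 9 in Dicer knockout cells and 9 in the libraries labelled Ago1 and Ago2 knockout, none rose, and 0 passed in the libraries labelled Dgcr8 knockout. The medians were log2 -3.79, -4.26, -4.50 and -1.73 in that order. Gata6, which starts this lineage, was at 0 counts in both Dicer libraries and in the first library of the Drosha knockout and of those labelled Ago1 and Ago2 knockout, and at 17.5 and 46.6 CPM in WT. The first library labelled Dgcr8 knockout held 10698 CPM of the list and the second 4186 CPM. Most of the factors had the same library order, namely Sox2, Esrrb, Klf4, Klf5, Tfcp2l1, Zfp42 and Tbx3. Pou5f1, Nanog and Klf2 had the opposite order. Trophectoderm genes, 6 of 12 measured with Cdx2, Eomes, Gata3 and Elf5 not among them, summed to 171 to 236 CPM under the Dgcr8 label, 396 to 399 CPM in Drosha knockout cells, 645 to 878 CPM in Dicer knockout cells and 199 to 223 CPM in the libraries labelled Ago1 and Ago2 knockout, against 163 to 196 CPM in WT, with 2 called higher of 6 in Drosha knockout cells, 4 of 6 in Dicer knockout cells and 0 in the other groups, beside 2.48% and 7.35% of all genes in Drosha and Dicer. The 6 were the keratins Krt7, Krt8, Krt18 and Krt19, with Tfap2c and Tead4. Keratins held most of the sum in the Dicer knockout, with Krt8, Krt18 and Krt19 at means of 269.5, 206 and 164 CPM, against 31.7, 50.1 and 35.3 CPM in WT. Tfap2c averaged 71.5 CPM there against 45.9 CPM in WT, and Tead4 24.2 against 13.9 CPM. Fibroblast genes, 5 of 8 measured, summed to 422 to 510.0 CPM under the Dgcr8 label, 247 to 538 CPM in Drosha knockout cells, 249.9 to 268 CPM in Dicer knockout cells and 361 to 392 CPM in the libraries labelled Ago1 and Ago2 knockout, against 434 to 459.9 CPM in WT. Of the 5, 3 were called lower in the Dicer knockout and 0 in the other groups against WT. Of other lineages 3 of 9 listed genes were measured. They summed to 74.2 to 128 CPM under the Dgcr8 label, 84.4 to 146 CPM in Drosha knockout cells, 96.5 to 107 CPM in Dicer knockout cells and 126 to 173 CPM in the libraries labelled Ago1 and Ago2 knockout, against 77.3 to 79.6 CPM in WT. Of these 1, Nes, was called higher in the Dicer knockout. The part of such cells in the levels of Klf2, Klf4, Klf5 and Zfp42 was not tested.

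**Figure D5:**
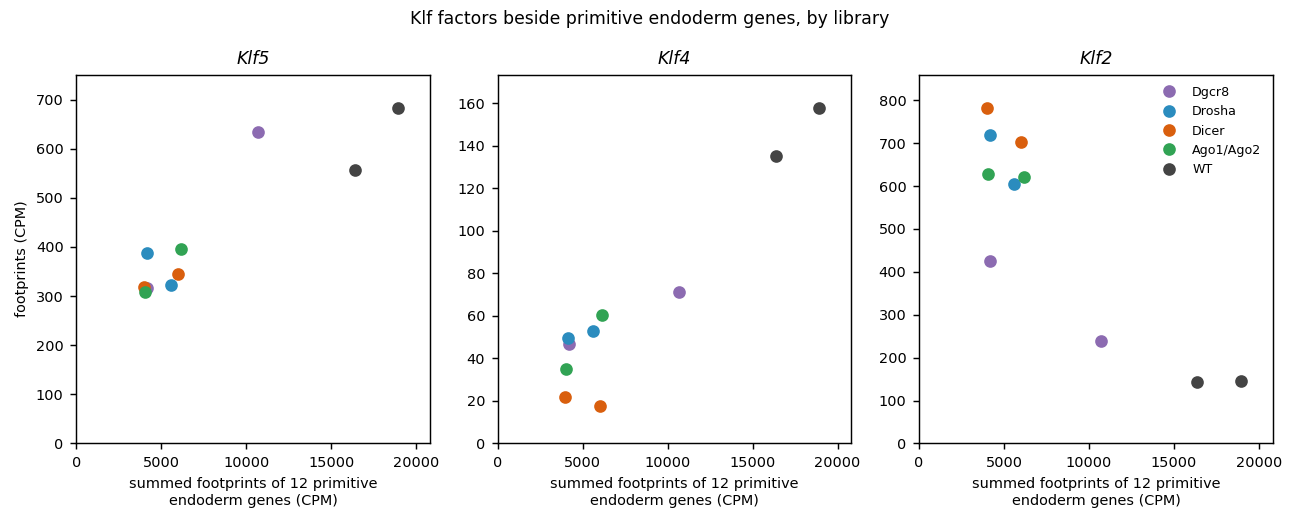
Footprints of Klf5, Klf4 and Klf2 (vertical axes, CPM from 0) against the summed footprints of 12 primitive endoderm genes (horizontal axis, CPM) in the 10 libraries, coloured by group. Most of that sum in WT came from the laminin genes Lamc1, Lama1 and Lamb1. The WT libraries lie at 16370.0 to 18923 CPM on the horizontal axis, the first library labelled Dgcr8 knockout between them and the rest, and the other 7 at 3981 to 6162 CPM.

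By Pearson's r of log2 CPM over the 10 libraries, which share their groups, the genes most like Klf2 among 6795 named genes with a mean of at least 20 CPM were Ninl (r 0.981) and Dctn4 (r 0.972). Those most like Klf4 were Npl (r 0.959) and Clgn (r 0.950). For Klf5, which was not called and was chosen after its values were seen, they were Pdgfra (r 0.959), a member of the primitive endoderm list, and Srgn (r 0.954). These likenesses are descriptions of 10 libraries.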

How the data were processed

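The deposited table gives whole-number counts of footprint reads per gene for 10 libraries, made by the authors, with no normalization. Trimmomatic and Bowtie2, with the builds mm10 (GRCm38) and dm6 (BDGP6), are named in the submitters' processing notes. Versions, the counting tool, its annotation and its strand setting are not given in the sources used here. Columns were matched to samples by the library number in both, and replicate numbers follow the titles, from which the headers differ for Ago1 and Ago2. Counts were fitted in R 4.3.3 with edgeR 4.0.16 (TMM, filterByExpr, 1 mean per group, all 10 libraries), with 5 residual degrees of freedom and 2-sided quasi-likelihood tests. Dividing the size of a log2 fold change by the root of its F gave the SE. The SD is between the 2 libraries of a group. On simulated data of the Drosha comparison with 10978 genes, 90% of 8-fold and 7% of 2-fold changes were called, so a factor that did not pass may still have changed. Alternatives used DESeq2 1.42.0, limma 3.58.1, other scalings, no filter, a replicate term, single libraries left out and the 2 groups alone. All 10 members are named, with up to 4 called genes of each list by adjusted p, and the members and lists were chosen with earlier results of these data known. Tcf7l1, Stat3, Tcf15, Sox4 and Gata6 were named after their values were seen. Coding lengths and 3′ UTRs are those of 1 principal transcript per gene in GENCODE M21.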

Additional observations from a re-analysis of the deposited data

Results flagged for a closer look

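Klf4 differed between the Dicer knockout and the libraries labelled Dgcr8 knockout in a test of the difference itself. It averaged 19.7 ± 3.30 CPM in Dicer and 58.9 ± 17.1 CPM in the group labelled Dgcr8 (SD, n = 2 libraries each), a log2 difference of -1.60 (SE 0.35, adjusted p = 0.0301 in edgeR). Both Dicer libraries were below both libraries labelled Dgcr8 knockout. Without each of the 10 libraries in turn the call held in 6 cases and was lost in 4, with adjusted p up to 0.338, and limma-voom lost it (adjusted p = 0.0582). Footprints of Dgcr8 were 145 ± 0.568 CPM in those libraries, 183 ± 19.9 CPM in Drosha knockout cells and 32.9 ± 0.235 CPM in WT. Such levels do not show the genotype of the libraries labelled Dgcr8 knockout.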

How the results depend on the processing

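Dgcr8 and Ago1 and Ago2 stand here for the libraries so labelled. Klf2 and Klf4 kept their direction in every comparison with WT under every alternative run. Leaving out single libraries, the factors called higher ranged over 0 to 1 in the libraries labelled Dgcr8 knockout, 0 to 1 in Drosha, 0 to 1 in Ago1 and Ago2 and 0 to 1 in the 4 averaged. Those called lower ranged over 0 to 1 in Drosha, 1 to 2 in Dicer, 0 to 1 in Ago1 and Ago2 and 0 to 2 in the 4 averaged, any difference over 0 to 3, and Dicer against Dgcr8 over 0 to 2. DESeq2 called 1 higher and 1 lower in the libraries labelled Dgcr8 knockout, 3 lower in Dicer, 2 lower in Ago1 and Ago2, 2 in Dicer against Dgcr8 and 1 in Ago1 and Ago2 against Dicer. Limma-voom called 0 lower in Drosha, and the 2 groups alone 4 lower in Dicer. The cause of these differences was not tested. Over all genes, the counts called higher and lower were 272 and 106 in Drosha, against 631 and 341 by DESeq2, 99 and 12 by limma-voom and 470 and 300 with the replicate block. For Dicer they were 807 and 413, against 1190 and 684, 799 and 246 and 1130 and 747 in that order. For Ago1 and Ago2 they were 217 and 99, against 603 and 329, 516 and 426 and 468 and 270, and for the libraries labelled Dgcr8 knockout 6 and 2, against 102 and 58, 8 and 7 and 10 and 4. The 2 groups alone gave 1797 and 1427 in Dicer, 355 and 211 in Drosha, 320 and 216 in Ago1 and Ago2 and 0 and 0 in the libraries labelled Dgcr8 knockout. Titles number the libraries 1 and 2 in each group, but same-numbered libraries deviated together with r from 0.0610 to 0.287, under 0.1 in 1 of 10 pairs of groups, and no label says that a number marks a shared batch. For Ago1 and Ago2 the column headers carry other replicate numbers than the titles. These r values and the replicate block follow the titles, so the r values are uncertain for that group. The block is fitted over all groups together, so every result with the block carries that uncertainty. With the replicate block 3 factors were lower in Dicer and 2 were called in Dicer against Dgcr8, Tbx3 and Zfp42 being the factors added in Dicer (adjusted p = 0.0303 and 0.0389). Leaving out both libraries labelled Dgcr8 knockout, chosen after seeing the data, as were all alternatives for comparisons without WT, kept the counts of factors called in Drosha, Dicer and Ago1 and Ago2. Factors not called reversed their small log2 differences when 1 library was left out, with these lowest to highest values. In the libraries labelled Dgcr8 knockout these were Nanog -0.23 to 0.26, Klf5 -0.97 to 0.0332, Tfcp2l1 -0.72 to 0.0911. In Drosha these were Pou5f1 -0.0535 to 0.34, Sox2 -0.22 to 0.0489, Nanog -0.0155 to 0.15, Esrrb -0.27 to 0.25, Tfcp2l1 -0.29 to 0.0580, Tbx3 -0.68 to 0.24. In Dicer these were Pou5f1 -0.16 to 0.14. In Ago1 and Ago2 these were Pou5f1 -0.0233 to 0.18, Nanog -0.28 to 0.0739, Esrrb -0.14 to 0.15. In the 4 groups averaged these were Pou5f1 -0.00198 to 0.18, Nanog -0.0542 to 0.0674. In Drosha against Dgcr8 they were Klf4 -0.48 to 0.12, Tbx3 -0.26 to 0.67. In Ago1 and Ago2 against Dgcr8 they were Klf4 -0.75 to 0.0289. In Ago1 and Ago2 against Drosha they were Klf2 -0.20 to 0.0542, Klf4 -0.54 to 0.24. In Ago1 and Ago2 against Dicer they were Tbx3 -0.0284 to 0.11. Other settings reversed Esrrb in Drosha to -0.00774 (limma-voom), Pou5f1 in Dicer to 0.0145 (size factors of DESeq2), Pou5f1 in Dicer to 0.0141 (DESeq2), Esrrb in Ago1 and Ago2 to -0.0105 (total count scaling), Esrrb in Ago1 and Ago2 to -0.0180 (2 groups alone).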

Other observations

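The string shared by Klf2 and Klf4, GTGCAATA, is present in the 3′ UTRs of 282 genes tested. Their median log2 fold change over WT was 0.12 in the libraries labelled Dgcr8 knockout, 0.22 in Drosha knockout cells, 0.34 in Dicer knockout cells and 0.18 in the libraries labelled Ago1 and Ago2 knockout, where the median of all genes with a 3′ UTR lay between -0.00910 and 0.0376. Those with a positive value made up 60.6%, 62.4%, 65.2% and 63.1% in the same order, against 49.5% to 52.5% of all. The shorter string GTGCAAT, in 738 genes, had smaller medians of log2 0.0890, 0.12, 0.17 and 0.0786, with 56.5% to 60.03% positive. Klf2 lay far above these medians and Klf4 far below them. The string was chosen because Klf2 and Klf4 share it, and both are among these genes. Genes with other seed matches, or with 3′ UTRs of like length, were not compared, so the shift cannot be tied to this string. These are descriptions with no test, and the 4 comparisons share the WT libraries.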
